A study of Homo sapiens with 17 samples.

Results

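The replication-dependent histone genes code for the bulk histones that wrap newly copied DNA: the linker histone H1 and the core histones H2A, H2B, H3 and H4. They were taken as the protein-coding genes whose symbol is H1-1 to H1-6, or H2AC, H2BC, H3C or H4C with a number (formerly HIST1 to HIST4), which gave 69 of the 58278 gene identifiers counted. The 69 comprise 6 genes for H1, 17 for H2A, 18 for H2B, 13 for H3 and 15 for H4. Their RNA was followed in MOLM13, an established human acute myeloid leukaemia line driven by the MLL-AF9 fusion, after CRISPR knockout of HOXA9, SAFB or MEIS1. HOXA9 and MEIS1, both homeobox factors, keep such leukaemia cells growing; SAFB, a protein of the nuclear matrix, binds nucleic acids. The 17 libraries came from 2 experiments. In the HOXA9 and SAFB experiment, HOXA9 knockout cells (HOXA9_KO, 3 libraries) and SAFB knockout cells (SAFB_KO, 3 libraries) were set against cells with a non-targeting guide (NT, 3 libraries), so that both knockouts share their controls. In the MEIS1 experiment, MEIS1 knockout cells (MEIS1_KO, 4 libraries) were set against a non-targeting group of their own (NT_MEIS1ex, 4 libraries). The fusion and the CRISPR treatment are common to all 5 groups. The sources used here do not give the time after knockout, the guide sequences, or whether the cells were clones or pools. They do not say that replicates were grown separately either, so p-values measure the spread between these libraries, which may be technical.

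Cells make these histones mainly in S phase, when DNA is copied. Their genes lie in clusters; NPAT, a substrate of cyclin E with CDK2, gathers at the clusters and switches them on, with FLASH (gene CASP8AP2) as a partner, and HINFP binds promoters of H4 genes. Histone mRNAs carry no poly(A) tail and end just after a short hairpin, the stem-loop, which SLBP binds and which the U7 small nuclear ribonucleoprotein helps to cut. Cells that stop copying DNA lose these mRNAs, while variants such as H3.3 are made throughout the cycle from polyadenylated mRNAs. In bulk RNA, fewer cells in S phase and less histone mRNA per S phase cell cannot be told apart.

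The libraries were of total RNA depleted of ribosomal RNA, so that a poly(A) tail was not needed for capture. Reads assigned to genes numbered 30.7 to 67.8 M per library in the HOXA9 and SAFB experiment and 23.3 to 33.2 M in the MEIS1 experiment. The targeted gene was lower in its knockout in every library: HOXA9 at 21.1 to 21.9 CPM in HOXA9_KO, against 40.1 to 42.0 CPM in NT; SAFB at 19.4 to 22.2 CPM in SAFB_KO, against 33.6 to 40.9 CPM in NT; MEIS1 at 10.3 to 12.8 CPM in MEIS1_KO, against 31.7 to 33.4 CPM in NT_MEIS1ex. Mitochondrial rRNA took 33.9% of assigned reads in HOXA9_KO, 25.7% in SAFB_KO and 25.1% in NT on average, but at most 0.00941% in the MEIS1 experiment. Reads outside genes took 9.02%, 11.6% and 17.04% in those 3 groups, and 8.25% in MEIS1_KO against 7.30% in NT_MEIS1ex. The part of either share in the results was not tested. Each of 10 markers of monocytic leukaemia, LYZ and PTPRC among them, was present in every library. Of 17 markers of erythroid, lymphoid, epithelial and fibroblast cells, KRT8 (2.25 to 5.68 CPM) and KRT18 (6.27 to 12.4 CPM) were the ones that passed 2.09 CPM in any library.

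By position the genes fall into 5 places of GRCh38 (GENCODE 29). Chromosome 6 holds 34 at 25726132 to 26285638 and 21 at 27125897 to 27893843. Chromosome 1 holds 11 at 149782689 to 149887916 and 2 at 228456979 to 228460470. H4C16 stands alone on chromosome 12 (14767999 to 14771131, minus strand). The hairpin at the end of the mRNA is the sequence feature that sets the class apart. It is shown here because its presence in the annotated transcript shows that the model reaches the hairpin. The search used a fixed pattern, so the lack of a match does not show that a model stops short. Long models such as H2BC7 (1196 bases) and H3C8 (2411 bases) had no match. A 16-base stem-loop was found in the GENCODE 29 transcripts of 26 of the 69 genes and of 3 of 19727 other nuclear protein-coding genes. For 41 of the 69 genes the model is a single transcript with a length that is a multiple of 3. A coding sequence without UTRs has such a length. Some of these models hold the stem-loop all the same, among them H2AC11 (2250 bases) and H3C14 (1656 bases). The length alone therefore does not show which models end at the stop codon. In a model that does, reads past the stop codon fall outside the gene. The stem-loops took 4 forms, carried by 17, 5, 3 and 1 genes, and the sequences below show each form once, with the stem and loop in capitals (GRCh38). H4C16 is added because its RNA moved against the rest of its type. The first is an H2A gene (chr6:26217417-26217432, plus strand), the second an H4 gene of the large cluster (chr6:26285131-26285146, minus strand), the third the lone H4 gene of chromosome 12 (chr12:14770724-14770739, minus strand), the fourth an H4 gene (chr6:27139654-27139669, plus strand) and the fifth an H2A gene (chr6:27133515-27133530, plus strand), positions being those of the capitals.
H2AC8: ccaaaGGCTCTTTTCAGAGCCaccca
H4C8: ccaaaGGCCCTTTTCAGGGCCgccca
H4C16: caaaaGGCCCTTTTCAGGGCCcccaa
H4C9: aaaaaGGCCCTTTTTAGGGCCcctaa
H2AC11: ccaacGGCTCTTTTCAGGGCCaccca
The 16 capitals of H4C16 and H4C8 are identical, and their flanks differ.

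Promoters were read from RefSeq (GRCh38.p14) for 64 of the 69 genes and searched on both strands in the 250 bases before the start for 4 motifs: CCAAT as the box of that name, TATAAA as the TATA box, ATTTGCAT as the octamer that OCT1 binds, and TTTCGCGC or TTTGGCGC as letters of an E2F site. CCAAT stood in 54 of 64 (84.4%), against 34.6% of 15226 other protein-coding promoters. It was in each promoter read for H1, H2A, H2B and H3 genes, but in 3 of 13 for H4. TATAAA stood in 42 of 64 (65.6%, against 8.95%), and TTTCGCGC or TTTGGCGC in 11 of 64 (17.2%, against 1.33%). ATTTGCAT stood in 26 of 64 (40.6%, against 1.46%), namely 14 of 18 H2B, 11 of 16 H2A and 1 of 11 H3 promoters. The stretch read for that H3 gene, H3C4, was also the stretch read for H2AC7, so its motifs were counted for both genes. H2A and H2B genes that stand head to head also share much of the stretch searched. A motif between their starts was counted for both partners, as was the octamer between H2AC6 and H2BC4. The counts are therefore of promoters and not of separate sites. Below are the 150 bases before the start, with these motifs on either strand in capitals, for an H2A and an H2B gene with large falls in HOXA9_KO, an H4 gene with a large fall and the H4 gene that rose. They lie at chr6:27814778-27814927, minus strand (H2AC14), chr6:26199366-26199515, plus strand (H2BC7), chr6:26189113-26189262, minus strand (H4C4) and chr12:14771132-14771281, minus strand (H4C16).
H2AC14: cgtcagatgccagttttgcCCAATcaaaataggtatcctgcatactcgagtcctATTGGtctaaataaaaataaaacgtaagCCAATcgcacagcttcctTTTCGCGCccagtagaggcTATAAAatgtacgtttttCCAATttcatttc
H2BC7: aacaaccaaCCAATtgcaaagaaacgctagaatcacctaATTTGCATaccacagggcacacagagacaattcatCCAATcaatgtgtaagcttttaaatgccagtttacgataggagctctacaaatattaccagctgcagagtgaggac
H4C4: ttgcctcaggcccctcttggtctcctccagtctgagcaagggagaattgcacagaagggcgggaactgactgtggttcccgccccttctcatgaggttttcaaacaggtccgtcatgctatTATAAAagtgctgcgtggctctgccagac
H4C16: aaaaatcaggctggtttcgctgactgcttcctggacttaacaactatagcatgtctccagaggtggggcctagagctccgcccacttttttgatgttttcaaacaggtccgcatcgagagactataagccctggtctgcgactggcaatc
H4C4 shows 1 TATAAA, and H4C16 shows none of the searched letters in these 150 bases. In the 250 bases searched H4C16 does hold TATAAA, and it is among the 42 genes counted above. A match is a description of letters, and the lack of it says nothing of a factor.

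Summed over the 69 genes, histone RNA was lower in each of the 3 knockouts than in its controls. Levels are CPM, the reads of a gene for each 1000000 reads of a library, scaled by TMM within each experiment. The sum was 3402, 3295 and 3298 CPM in the HOXA9_KO libraries, 4612, 4497 and 4744 CPM in SAFB_KO and 5547, 5433 and 5384 CPM in NT. It was 11516, 12028, 11983 and 12246 CPM in MEIS1_KO, against 14575, 13861, 13308 and 15774 CPM in NT_MEIS1ex. No knockout library reached the lowest library of its controls. The means were 3332 ± 60.7 CPM in HOXA9_KO, 4618 ± 123 CPM in SAFB_KO and 5455 ± 83.4 CPM in NT (SD, n = 3 each), a difference from NT of −38.9% in HOXA9_KO and −15.3% in SAFB_KO. MEIS1_KO averaged 11943 ± 307 CPM and NT_MEIS1ex 14379.5 ± 1064 CPM (SD, n = 4 each), a difference of −16.9%. As a percent of the counts of nuclear protein-coding genes, which leaves out mitochondrial rRNA, the sum was 0.451 ± 0.00610% in HOXA9_KO, 0.676 ± 0.0124% in SAFB_KO and 0.879 ± 0.0145% in NT, and 1.28 ± 0.0219% in MEIS1_KO against 1.51 ± 0.0897% in NT_MEIS1ex. On this scale the differences from the controls were −48.7% in HOXA9_KO, −23.1% in SAFB_KO and −15.3% in MEIS1_KO. The 2 sets of controls stood apart, since histone genes took a larger share of the nuclear protein-coding counts in NT_MEIS1ex than in NT; no test was made across experiments.

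The shares of the 5 types in the histone reads moved by little within an experiment. H2B and H2A made up most of the histone reads of the HOXA9 and SAFB experiment, with 31.5 ± 0.547% and 28.9 ± 0.116% in HOXA9_KO, against 30.7 ± 0.781% and 28.6 ± 0.765% in NT. The H4 share was 11.1 ± 0.151% in HOXA9_KO, 10.4 ± 0.0783% in SAFB_KO and 10.04 ± 0.0850% in NT. The H3 share was 11.5 ± 0.251%, 12.4 ± 0.234% and 12.8 ± 0.261% in the same groups. The H1 share was 16.96 ± 0.440%, 17.7 ± 0.437% and 17.9 ± 0.218%. HOXA9_KO and NT did not overlap for the shares of H1, H3 and H4, but did for those of H2A and H2B. Per type, the summed CPM of HOXA9_KO differed from that of NT by −45.02% for H3, −42.2% for H1, −38.2% for H2A, −37.2% for H2B and −32.6% for H4. In SAFB_KO the figures were −17.7%, −16.5%, −14.97%, −15.01% and −12.4%, in the same order of types. In MEIS1_KO they were −19.6%, −14.9%, −18.2%, −15.7% and −18.03%, so that H1 fell least there and H3 most.

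**Figure D1:**
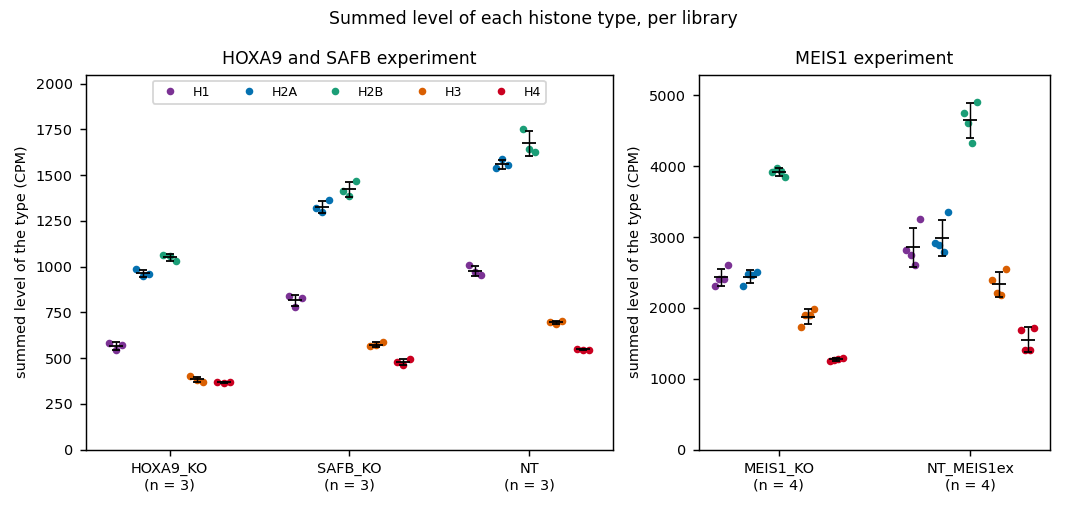
Summed level in CPM of each histone type (H1, H2A, H2B, H3, H4) in every library (points), with the mean and SD of each group (black bars); HOXA9_KO, SAFB_KO and NT are on the left, MEIS1_KO and NT_MEIS1ex on the right. HOXA9_KO lies lowest for each type in its experiment, and the summed H1 of MEIS1_KO differs from that of NT_MEIS1ex by −14.9%.

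A few genes gave much of the signal: the 10 highest held 47.7% of all histone reads. Per kilobase of exon, H2BC12 stood highest in NT and in NT_MEIS1ex (666 and 2242 CPM per kb), with H1-5 (619.7 and 1795 CPM per kb) and H3C2 (574 and 1942 CPM per kb) next in either group. These values rest on model lengths that differ in how much UTR they hold. At the low end, H2AC1, H2AC15, H3C4, H4C6 and H4C7 had 0 reads in all 17 libraries. By counting error alone a count of 0 allows up to 3 reads in a library. For H2AC15 and H3C4 the 0 need not mean a low level. Another gene overlaps 100% of the exon bases of either, on the opposite strand for H2AC15 and the same strand for H3C4. Their sequence windows are all shared too. Reads there can go unassigned, which was not tested. H1-1, H2BC1, H2BC3, H2BC10, H3C3 and H3C8 had reads but were also removed by the filter on low counts, which left 58 genes to test in the HOXA9 and SAFB experiment. In the MEIS1 experiment H1-6, H2BC9 and H3C6 were removed as well, which left 55. H2BC9 was detected in the first experiment, at 3.68, 3.11 and 3.73 CPM in HOXA9_KO, 5.54, 5.94 and 4.90 CPM in SAFB_KO and 8.12, 7.54 and 7.84 CPM in NT, but at 0.328, 0.251, 0.372 and 0.172 CPM in MEIS1_KO, against 0.321, 0.403, 0.224 and 0.280 CPM in NT_MEIS1ex. For 15 genes at least 50% of the 100-base windows of their sequence also occur in another gene, while 45 genes have no such window. The other gene can be a copy elsewhere or a model that overlaps at the same place, so that reads can fit both.

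HOXA9 knockout lowered nearly the whole class. Of the 58 tested genes 51 fell, 1 rose and 6 were not called (edgeR quasi-likelihood test, adjusted p under 0.05); 29.9% of all 18876 tested genes fell and 27.6% rose. The median log2 fold change of the 58 was −0.71, beside −0.07 over all tested genes. In 53 genes every HOXA9_KO library lay below every NT library, an arrangement seen in 33.5% of all tested genes, and in 1 every HOXA9_KO library lay above (29.1% of all). Changes of −1 or less, a fall to 50% or below, were measured for 13 genes, and −0.5 or less for 44. By type, 5 of 5 H1 genes fell (median −0.89), 13 of 15 H2A (−0.67), 15 of 15 H2B (−0.71), 9 of 10 H3 (−0.76) and 9 of 13 H4, while 1 rose (−0.42). Without the genes that share at least 50% of their windows (an alternative added after seeing the data) the H4 median was −0.67 and the H3 median −0.87, so the H4 value depends on which copies are counted.

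The largest falls came from different types and places. H1-3, a linker histone (chr6:26234268-26234933), had 21.6, 17.4 and 21.6 CPM in HOXA9_KO, against 50.99, 47.9 and 45.7 CPM in NT. It fell by 1.26 ± 0.07 on the log2 scale (adjusted p 2.61e-17). H2AC8, an H2A gene (chr6:26216975-26217483), had 49.3, 44.7 and 50.9 CPM in HOXA9_KO, against 116, 118 and 113 CPM in NT, a fall of 1.26 ± 0.05 (adjusted p 6.69e-26). The groups of both genes stood far apart. H2BC7, an H2B gene (chr6:26199520-26200715), had 65.8, 69.6 and 70.3 CPM in HOXA9_KO, against 169.9, 158 and 159 CPM in NT and fell by 1.24 ± 0.04 (adjusted p 7.76e-32). H2AC14 (chr6:27814354-27814740) had 80.2, 75.9 and 81.2 CPM in HOXA9_KO, against 176, 183 and 182 CPM in NT and fell by 1.19 ± 0.04 (adjusted p 2.05e-32); 80.9% of its sequence windows occur in another gene. H4C1 had 7.62, 7.37 and 7.57 CPM in HOXA9_KO, against 18.3, 15.9 and 17.1 CPM in NT and fell by 1.19 ± 0.08 (adjusted p 6.13e-18). H2BC26 changed by −1.76 ± 0.27 and H1-6 by −1.94 ± 0.74, but H2BC26 reached at most 2.31 CPM and H1-6 at most 0.316 CPM in any library of the experiment. The call of H1-6 was lost with DESeq2 and without NT replicate 2, NT replicate 3, HOXA9_KO replicate 1 or HOXA9_KO replicate 3 (adjusted p up to 0.133).

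Among the highest genes of each type the falls were graded. H1-5 (chr6:27866849-27867529) had 236, 228.4 and 236 CPM in HOXA9_KO, against 429, 422 and 415 CPM in NT. H1-2 fell by 0.89 ± 0.04 and H1-4 by 0.54 ± 0.04, so the 4 well-expressed linker histones spanned −1.26 to −0.54. For H2A, H2AC17 fell by 0.92 ± 0.04, H2AC11 by 0.54 ± 0.04 and H2AC20 by 0.28 ± 0.04. H2AC20 had 137, 135 and 136 CPM in HOXA9_KO, against 160.3, 169 and 167 CPM in NT, a small but complete separation whose call was lost with all 17 libraries in the fit (adjusted p 0.161). For H2B, H2BC18 fell by 0.71 ± 0.04, H2BC21 by 0.60 ± 0.05, H2BC4 by 0.58 ± 0.04 and H2BC12 by 0.31 ± 0.04. H2BC12, the highest gene per kilobase, had 213, 206 and 195 CPM in HOXA9_KO, against 269, 248 and 244 CPM in NT, the smallest called fall of its type. For H3, H3C2 fell by 0.93 ± 0.03, H3C10 by 0.87 ± 0.04, H3C11 by 0.80 ± 0.05 and H3C12 by 0.71 ± 0.04. For H4, H4C4 fell by 1.12 ± 0.05, H4C5 by 0.69 ± 0.04, H4C9 by 0.42 ± 0.05 and H4C3 by 0.36 ± 0.04; H4C4 had 28.97, 29.6 and 31.1 CPM in HOXA9_KO, against 65.5, 65.1 and 64.04 CPM in NT.

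The 6 genes that were not called were H2AC6, H2AC25, H4C11, H4C12, H4C14 and H3C6. H2AC6 had 109, 111 and 108 CPM in HOXA9_KO, against 116, 114 and 117 CPM in NT, a change of −0.08 ± 0.04 (adjusted p 0.0687, range over the alternatives 7.30e-11 to 0.496). It was called lower when libraries were scaled to nuclear protein-coding counts and at a mean of at least 2 CPM. H4C11 had 6.40, 7.71 and 6.60 CPM in HOXA9_KO, against 6.57, 6.49 and 6.97 CPM in NT, and its groups overlapped. Sequence windows are mostly shared for H4C11 (77.7%), H4C12 (100%) and H4C14 (94.9%), whereas H3C6 and H2AC25 were low, with at most 0.895 and 2.52 CPM in any library of the HOXA9 and SAFB experiment. H3C6, at 0.84 ± 0.47, was called higher when HOXA9_KO replicate 3 was left out (adjusted p 0.00750).

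**Figure D2:**
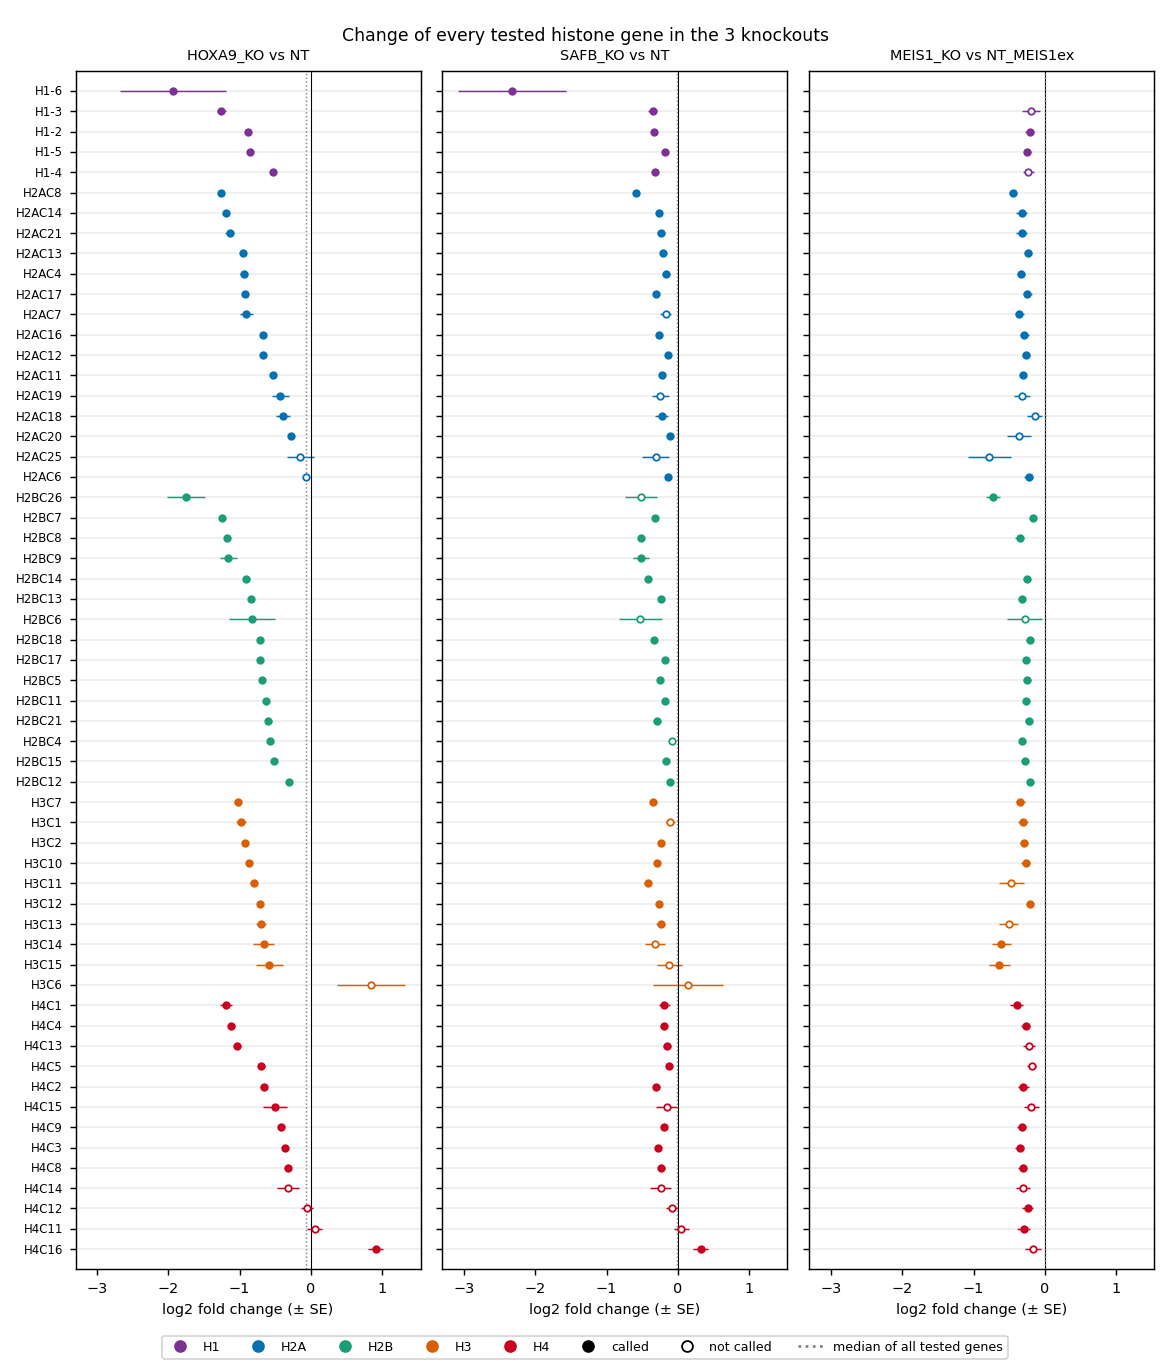
Log2 fold change (± SE) of every tested histone gene in HOXA9_KO vs NT, SAFB_KO vs NT and MEIS1_KO vs NT_MEIS1ex, coloured by type and ordered within a type by the change in HOXA9_KO; filled points were called, the dotted line is the median of all tested genes. Most points lie left of that line in all 3 panels, and H4C16 lies right of 0 in the first 2.

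The genes were also set out by features that the tests did not use. The median change in HOXA9_KO was −0.92 for the 24 tested genes of chromosome 6 at 26 Mb, −0.71 for the 20 at 27 Mb and −0.58 for the 11 of the larger chromosome 1 cluster. Genes whose models hold a transcript of more than 1 exon, 13 in all, had a median of −0.52, and the 45 with single-exon transcripts −0.85. Promoters with CCAAT went with a median of −0.84 (44 genes) and those without it with −0.33 (9 genes, all of them H4). With and without the octamer the medians were −0.83 (21 genes) and −0.67 (32 genes). In MEIS1_KO the same divisions gave −0.29 with CCAAT and −0.27 without, −0.30 for single-exon and −0.25 for other models. These are descriptions without a test, and type, place and sequence go together in these genes.

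SAFB knockout gave smaller falls in the same class. Of 58 tested genes 43 fell, 1 rose and 14 were not called; 15.3% of all tested genes fell and 20.2% rose. The median was −0.24, beside −0.02 over all tested genes, and in 47 genes every SAFB_KO library lay below every NT library (22.3% of all tested genes). The medians of the types were −0.33 for H1, −0.23 for H2A, −0.29 for H2B, −0.25 for H3 and −0.19 for H4. Because NT is common to both comparisons, the values of HOXA9_KO and SAFB_KO against it are not independent.

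Among genes with at least 2 CPM, H2AC8 had the largest called fall, to 78.2, 71.4 and 81.96 CPM in SAFB_KO, against 116, 118 and 113 CPM in NT (change −0.59 ± 0.04, adjusted p 1.61e-14). Its neighbour H2BC8, which starts 233 bases away on the other strand, had 37.4, 40.2 and 40.05 CPM in SAFB_KO, against 58.8, 56.2 and 54.4 CPM in NT and fell by 0.53 ± 0.05 (adjusted p 2.79e-12). In both genes the groups were separate. H1-6 changed by −2.32 ± 0.76 (adjusted p 0.0129) at 0.316 CPM or less in any library of the experiment, a call lost without SAFB_KO replicate 2 (adjusted p 0.0968). H2BC9 fell by 0.52 ± 0.11, H3C11 by 0.43 ± 0.05 and H2BC14 by 0.42 ± 0.04; H3C11 had 63.03, 57.7 and 59.3 CPM in SAFB_KO, against 83.6, 75.9 and 81.9 CPM in NT. H3C11 was not called (adjusted p 0.0626) when all 17 libraries were fitted together. Among the highest genes, H1-5 had 384, 356 and 379.9 CPM in SAFB_KO, a fall of 0.18 ± 0.03, H1-2 fell by 0.33 ± 0.04, H2AC11 by 0.22 ± 0.04, H2BC18 by 0.34 ± 0.04 and H3C2 by 0.24 ± 0.03. H2BC12 fell by 0.11 ± 0.04 and lost its call in 4 of 18 alternatives (adjusted p up to 0.154), without NT replicate 1 (and without SAFB_KO replicate 2) among them. H2BC4, with 179, 179.6 and 199 CPM in SAFB_KO, against 203, 194 and 191 CPM in NT, overlapped between the groups and was not called (−0.08 ± 0.04, adjusted p 0.0850).

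Set directly against SAFB_KO, HOXA9_KO was lower in 42 of the 58 genes and higher in 1 (20.5% and 20.1% of all tested genes). The median difference was −0.45, and the types gave −0.55 for H1, −0.53 for H2A, −0.48 for H2B, −0.46 for H3 and −0.22 for H4. The largest differences were those of H4C1 (a level of 7.62, 7.37 and 7.57 CPM in HOXA9_KO, against 14.9, 15.3 and 14.9 CPM in SAFB_KO), H2AC14 (−0.93 ± 0.04), H4C4 (−0.92 ± 0.05) and H2BC7 (−0.92 ± 0.04), beside H2BC26 (−1.23 ± 0.28) at 1.54 CPM or less in either knockout. H4C4 had 28.97, 29.6 and 31.1 CPM in HOXA9_KO, against 58.4, 56.3 and 55.6 CPM in SAFB_KO. H4C3, with 75.1, 73.9 and 78.5 CPM in HOXA9_KO, against 80.3, 78.3 and 83.4 CPM in SAFB_KO, overlapped between the knockouts and was not called (adjusted p 0.0755).

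MEIS1 knockout lowered most tested genes of the class. Of 55 tested genes 41 fell and 14 were not called, whereas of all 15744 tested genes 8.81% were called, 3.84% lower and 4.97% higher. No histone gene was called higher by edgeR, and none at an unadjusted p under 0.05, by DESeq2 or by limma-voom either. All 55 estimates were negative, between −0.78 and −0.14, with a median of −0.29 beside 0.00 over all tested genes. In 44 genes every MEIS1_KO library lay below every NT_MEIS1ex library (7.28% of all tested genes), and in none did every MEIS1_KO library lie above (8.43% of all). By type, 2 of 4 H1 genes fell (median −0.22), 11 of 15 H2A (−0.32), 13 of 14 H2B (−0.26), 7 of 9 H3 (−0.34) and 8 of 13 H4 (−0.30). When single libraries were left out, the count of falls ranged from 29 without MEIS1_KO replicate 3 to 43 without NT_MEIS1ex replicate 3.

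H2BC26, of the small group on chromosome 1, had the largest fall among called genes, with 14.9, 18.04, 17.3 and 18.9 CPM in MEIS1_KO, against 26.3, 26.5, 26.1 and 34.8 CPM in NT_MEIS1ex (change −0.72 ± 0.10, adjusted p 0.000256). Its neighbour H2AC25 had a lower estimate (−0.78 ± 0.30) but was not called (adjusted p 0.178), although all of its MEIS1_KO libraries lay below all controls; it was called without MEIS1_KO replicate 1 and without MEIS1_KO replicate 4. H3C15 and H3C14, H3 genes of chromosome 1 whose sequence windows are all shared with another gene, changed by −0.64 ± 0.14 and −0.61 ± 0.13 (adjusted p 0.0102 and 0.00739), with MEIS1_KO replicate 1 the lowest library of either gene. H3C15 had 3.74, 5.65, 5.13 and 7.11 CPM in MEIS1_KO, against 9.10, 8.47, 8.17 and 7.65 CPM in NT_MEIS1ex. Without that library the changes were −0.49 and −0.47, and both stayed below the threshold (adjusted p 0.0169 and 0.0143). H2AC8 had 87.6, 87.97, 90.6 and 84.5 CPM in MEIS1_KO, against 123, 114, 112 and 129.9 CPM in NT_MEIS1ex and fell by 0.45 ± 0.05 (adjusted p 4.88e-05). H4C1 had 78.4, 85.4, 89.2 and 84.9 CPM in MEIS1_KO, against 126, 97.9, 96.5 and 124 CPM in NT_MEIS1ex and fell by 0.40 ± 0.09 (adjusted p 0.0136). The knockout libraries of both genes lay below all controls.

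The highest genes fell by less. H1-5 had 993, 1039.6, 1033 and 1061 CPM in MEIS1_KO, against 1223, 1199.6, 1119 and 1348 CPM in NT_MEIS1ex, a fall of 0.24 ± 0.05 (adjusted p 0.00718). H1-3 (−0.20 ± 0.13) and H1-4 (−0.23 ± 0.08) were not called, and their groups overlapped. H3C2 had 639, 660.1, 653 and 657 CPM in MEIS1_KO, against 823, 748, 749 and 871 CPM in NT_MEIS1ex and fell by 0.29 ± 0.05 (adjusted p 0.00157). H2AC11 fell by 0.31 ± 0.05, H2AC13 by 0.24 ± 0.06, H2BC12 by 0.20 ± 0.04, H2BC18 by 0.22 ± 0.05, H2BC17 by 0.26 ± 0.05, H3C10 by 0.27 ± 0.07, H4C9 by 0.33 ± 0.06 and H4C8 by 0.31 ± 0.06. H3C11 (−0.47 ± 0.18) and H2AC20 (−0.37 ± 0.17) were below in every library but not called, with MEIS1_KO replicate 1 far below the other 3. Without that library both were called (adjusted p 0.00823 for H3C11 and 0.0323 for H2AC20). H3C11 had 125, 209, 195 and 214 CPM in MEIS1_KO, against 291, 259, 247 and 231 CPM in NT_MEIS1ex, and H2AC20 had 124, 200.4, 201 and 212 CPM in MEIS1_KO, against 220.3, 234, 236 and 262 CPM in NT_MEIS1ex. Of the 41 calls 28 held in every alternative; those of H4C11 and H4C12 were lost in 8 of 16, that of H2BC7 in 6, that of H3C10 in 5 and those of H1-2, H2AC6, H2AC17, H2AC21, H3C12 and H4C2 in 4, in each case without NT_MEIS1ex replicate 4 among others. The calls of H2AC13, H2AC14 and H2BC14 were lost without MEIS1_KO replicate 3, that of H2AC14 also without MEIS1_KO replicate 1 and that of H2BC14 also without NT_MEIS1ex replicate 4.

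The sizes of the effects were compared across experiments in a fit of all 17 libraries, as the change in one knockout minus the change in MEIS1_KO. HOXA9_KO had the larger fall in 36 of 57 tested genes and the smaller fall or a rise in 3 (19.7% and 24.5% of all 18836 tested genes), with a median difference of −0.39. The largest differences downward were H2BC7 (−1.03 ± 0.07, adjusted p 3.42e-15), H1-3 (−1.02 ± 0.19, 0.000607), H2BC26 (−0.98 ± 0.28) and H2AC14 (−0.83 ± 0.10), beside H2BC9 (−1.01 ± 0.36) with its few reads in the MEIS1 experiment, whose call was lost in 4 of 24 alternatives (adjusted p up to 0.0837). H2BC7 had 253, 255, 257 and 244 CPM in MEIS1_KO, against 284, 285, 271 and 298 CPM in NT_MEIS1ex, a fall of 0.17 ± 0.05. By type the median difference was −0.60 for H1, −0.36 for H2A, −0.45 for H2B, −0.38 for H3 and −0.05 for H4. H4C3 (0.04 ± 0.08), H4C8 (0.03 ± 0.09) and H4C9 (−0.05 ± 0.09) had differences smaller than their SE and were not called, which does not show that the effects are equal.

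Upward, the 3 genes were H4C16 (1.12 ± 0.16, adjusted p 5.84e-07), H4C11 (0.39 ± 0.14, 0.0248) and H2AC6 (0.19 ± 0.08, 0.0484); H2AC6 changed sign, to −0.13, when libraries were scaled to nuclear protein-coding counts. The call of H2AC6 was lost in 14 of 24 alternatives and that of H4C11 in 6, while that of H4C16 held in each. Few histone genes were called between SAFB_KO and MEIS1_KO. Of 57 genes none had a larger fall in SAFB_KO by edgeR (8.49% of all tested genes), with 1 at an unadjusted p under 0.05 and 0 by DESeq2 and by limma-voom. H4C16 (0.50 ± 0.16, adjusted p 0.0275) and H2BC4 (0.25 ± 0.07, adjusted p 0.0138) were higher in SAFB_KO relative to MEIS1_KO (12.4% of all), and the median difference was 0.08. No gene was called without SAFB_KO replicate 3, and 1 without NT replicate 1, NT replicate 3, SAFB_KO replicate 1, MEIS1_KO replicate 2 or NT_MEIS1ex replicate 1. The call of H4C16 was lost in 9 of 24 alternatives (adjusted p up to 0.1502) and that of H2BC4 in 3. Over the 55 genes tested in both experiments, the log2 changes of HOXA9_KO and MEIS1_KO had a Pearson r of 0.17 and a Spearman rho of 0.11, a description over genes that share libraries and sequence.

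Mitochondrial rRNA took a larger part of the HOXA9_KO libraries than of the NT libraries, so the scaling was varied. When libraries were scaled by their nuclear protein-coding counts, an alternative chosen after seeing the data, 9293 genes fell and 2861 rose in HOXA9_KO, against 5640 and 5207 under TMM. The median of all genes moved by −0.25 and that of the histone genes to −0.96. A change of scale shifts all genes of a comparison by nearly the same amount. The distance between these medians could therefore hardly change, and its constancy is no evidence for the fall. In HOXA9_KO the histone genes lay 0.64 below the median of all genes on either scale. In SAFB_KO the split was 5535 lower and 1712 higher, against 2886 and 3812, the shift was −0.14, and the histone genes lay 0.22 below all genes on either scale. In MEIS1_KO the shift was 0.03 and the distance 0.29 on either scale.

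The fall was set beside 2 lists of cell cycle genes. DNA replication genes and targets of E2F, the factor that opens S phase, fell in HOXA9_KO in 40 of 40 cases with a median of −0.76, beside −0.71 for the histone genes; 29.9% of all tested genes fell. In SAFB_KO 22 of 40 fell (median −0.14; 15.3% of all) and none was called higher. In MEIS1_KO 4 of 40 fell (−0.08; 3.84% of all): CDT1 (−0.38 ± 0.05), a licensing factor; TYMS (−0.23 ± 0.05), thymidylate synthase; CDC45 (−0.21 ± 0.06) and MCM2 (−0.17 ± 0.05), parts of the replicative helicase. The call of CDT1 held in each of 16 alternatives, and those of CDC45, MCM2 and TYMS were lost in 5, 5 and 1, without MEIS1_KO replicate 1, 2 or 3 or NT_MEIS1ex replicate 4 among them for CDC45 and MCM2. DESeq2 called 6 there and limma-voom 4. Summed over the list, the level was 1724 ± 35.7 CPM in HOXA9_KO, 2548 ± 16.96 CPM in SAFB_KO and 2776 ± 23.5 CPM in NT, and 4205 ± 98.6 CPM in MEIS1_KO against 4507 ± 133 CPM in NT_MEIS1ex. Those are differences of −37.9%, −8.21% and −6.69%, beside −38.9%, −15.3% and −16.9% for the histone sum, in HOXA9_KO, SAFB_KO and MEIS1_KO.

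G2/M genes, which act in mitosis, moved by a median of −0.98 in HOXA9_KO, −0.22 in SAFB_KO (31 of 35 lower) and 0.00 in MEIS1_KO (2 of 35 lower, UBE2C at −0.22 ± 0.06 and AURKB at −0.22 ± 0.07; 1 to 2 by the other tools, and the edgeR calls were lost in 9 and 11 of 16 alternatives). Of all tested genes 15.3% fell in SAFB_KO and 3.84% in MEIS1_KO, and the G2/M count in MEIS1_KO was near that share. The summed G2/M level was 2677 ± 156 CPM in MEIS1_KO, against 2656 ± 121 CPM in NT_MEIS1ex, a difference smaller than either SD. In HOXA9_KO it was 1609 ± 29.9 CPM, against 3089 ± 103 CPM in NT. The difference between the effects of HOXA9_KO and MEIS1_KO was called downward in 37 of 40 replication genes (median −0.64) and 34 of 35 G2/M genes (−0.95), beside 36 of 57 histone genes (−0.39) and 19.7% of all tested genes. Between SAFB_KO and MEIS1_KO it was called downward in 1 of 40, 13 of 35 and 0 of 57, beside 8.49% of all. In MEIS1_KO 41 of 55 histone genes fell while 4 of 40 replication and 2 of 35 G2/M genes did. Every MEIS1_KO library lay below every NT_MEIS1ex library in 44, 12 and 4 genes of these sets, beside 7.28% of all tested genes. Every one lay above in 0, 1 and 0, beside 8.43% of all. This contrast of lists is given as counts without a test.

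**Figure D3:**
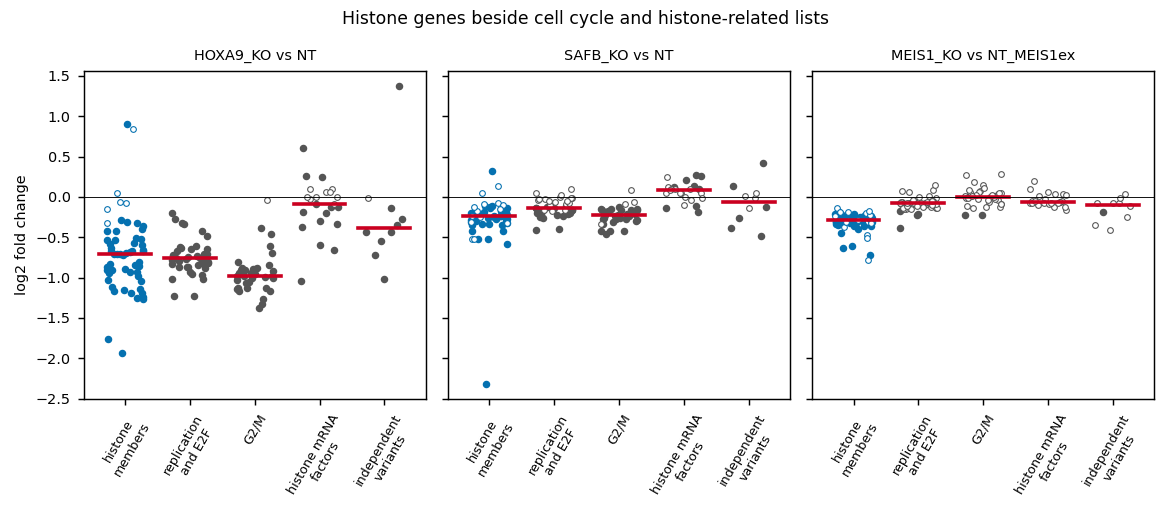
Log2 fold change of each tested gene (points, filled where called) for HOXA9_KO vs NT, SAFB_KO vs NT and MEIS1_KO vs NT_MEIS1ex. The sets are the histone genes, DNA replication and E2F targets, G2/M genes, histone mRNA factors and replication-independent histone variants. The red line is the median of the set. In the MEIS1_KO panel the histone genes centre on −0.29, the replication genes on −0.08 and the G2/M genes on 0.00.

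Factors that switch on the histone genes or process their mRNA had medians of −0.09 in HOXA9_KO, 0.09 in SAFB_KO and −0.06 in MEIS1_KO. Of 23 tested factors, 11 fell and 3 rose in HOXA9_KO (29.9% and 27.6% of all tested genes). In SAFB_KO 3 fell and 6 rose (15.3% and 20.2% of all), shares near those of all genes. In MEIS1_KO none was called by edgeR (3 at an unadjusted p under 0.05; 1 higher by DESeq2 and 0 by limma-voom). CCNE2, a cyclin E, fell by 1.04 ± 0.06 in HOXA9_KO (adjusted p 5.46e-22), and its partner kinase CDK2 by 0.66 ± 0.05. CASP8AP2 (FLASH) fell by 0.59 ± 0.05 and NPAT by 0.38 ± 0.05 (adjusted p 4.52e-15 and 4.33e-09). NPAT had 36.2, 36.5 and 37.9 CPM in HOXA9_KO, 41.8, 44.4 and 44.3 CPM in SAFB_KO and 47.9, 48.8 and 46.8 CPM in NT, so that SAFB_KO lay between the others. NPAT fell in SAFB_KO by 0.14 ± 0.05 (adjusted p 0.0206), a call lost with all 17 libraries in the fit, without NT replicate 2 and without SAFB_KO replicate 1 (adjusted p up to 0.138). In MEIS1_KO NPAT had 43.99, 41.7, 37.8 and 39.4 CPM, against 32.8, 42.04, 42.3 and 34.9 CPM in NT_MEIS1ex, and the groups overlapped (0.10 ± 0.08).

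SLBP, the stem-loop binding protein, had 65.3, 57.8 and 61.6 CPM in HOXA9_KO, 75.1, 76.1 and 76.02 CPM in SAFB_KO and 76.6, 78.7 and 72.4 CPM in NT. It fell in HOXA9_KO by 0.30 ± 0.04 (adjusted p 4.40e-08), changed by 0.00 ± 0.04 in SAFB_KO, where the sign varied with the settings, and by −0.08 ± 0.05 in MEIS1_KO, where it was not called (adjusted p 0.358). HINFP, the H4 promoter factor, was called in none of the knockouts (0.07 ± 0.07 in HOXA9_KO, −0.04 ± 0.07 in SAFB_KO and 0.04 ± 0.07 in MEIS1_KO). LSM10, part of the U7 particle, rose in HOXA9_KO by 0.61 ± 0.11. LSM11, its partner, rose in SAFB_KO by 0.25 ± 0.08. UPF1, which takes part in the decay of histone mRNA, rose in HOXA9_KO by 0.25 ± 0.04 and in SAFB_KO by 0.21 ± 0.04. Under the scaling to nuclear protein-coding counts LSM10 was still called higher in HOXA9_KO (0.36, adjusted p 0.00487), but UPF1 was not (−0.00375 in HOXA9_KO and 0.07 in SAFB_KO), and none of the 6 rises of SAFB_KO was called. The effects of HOXA9_KO and MEIS1_KO differed for NPAT (−0.44 ± 0.09), CASP8AP2 (−0.61 ± 0.08) and SLBP (−0.18 ± 0.07); the SLBP call was lost in 15 of 24 alternatives (adjusted p up to 0.179).

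Chaperones that carry new histones to DNA were mostly lower in HOXA9_KO, with 13 of 20 lower and 4 higher, beside 29.9% and 27.6% of all tested genes. HJURP, which places CENPA, fell by 1.06 ± 0.06, NASP by 0.90 ± 0.04, ASF1B by 0.90 ± 0.07 and CHAF1B by 0.88 ± 0.08. In SAFB_KO 5 fell, NASP by 0.37 ± 0.04, and 4 rose, beside 15.3% and 20.2% of all tested genes. Of these rises, UBN1 and NAP1L1 in HOXA9_KO and UBN1 in SAFB_KO were called under the scaling to nuclear protein-coding counts. In MEIS1_KO 2 fell, ASF1B by 0.18 ± 0.05 and MCM2 by 0.17 ± 0.05, and 1 rose, ATRX by 0.23 ± 0.07. Of all tested genes 3.84% fell and 4.97% rose there. The calls of ASF1B, MCM2 and ATRX were lost in 7, 5 and 6 of 16 alternatives, and MCM2 is in the replication list too. NASP, which binds H1 and H3 with H4, changed by 0.01 ± 0.06 in MEIS1_KO and was not called.

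Variants that are made outside S phase as well gave a mixed picture. In HOXA9_KO 8 of 10 fell and 1 rose, beside 29.9% and 27.6% of all tested genes. CENPA of centromeres fell by 1.02 ± 0.10, H2AZ1 by 0.72 ± 0.03, H2AX by 0.55 ± 0.06, H3-3B by 0.43 ± 0.03, H1-10 by 0.43 ± 0.09, H2AZ2 by 0.28 ± 0.04 and MACROH2A1 by 0.14 ± 0.03. H3-3A, the other gene for H3.3, was not called (−0.01 ± 0.04), and H2AJ rose. In SAFB_KO H1-10 (−0.38 ± 0.09), H2AZ1 (−0.26 ± 0.03) and H2AZ2 (−0.12 ± 0.04) fell, and H2AJ and H3-3A (0.14 ± 0.04) rose. Under the scaling to nuclear protein-coding counts H3-3A was at −0.00357 and not called. The call of H2AZ2 was lost without NT replicate 3 and without SAFB_KO replicate 2. That of H1-10 was lost with all 17 libraries in the edgeR fit, in HOXA9_KO (adjusted p 0.0767) and in SAFB_KO (0.120). In MEIS1_KO H2AZ1 fell by 0.18 ± 0.05, a call lost in 4 of 16 alternatives, and no other variant was called. Of 6 genes with histone-like symbols outside the rule H2BC12L was the single tested gene, and it was not called in any knockout.

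Among 13 tested inhibitors of cyclin-dependent kinases, G1 cyclins and their partners, 6 fell and 2 rose in HOXA9_KO, beside 29.9% and 27.6% of all tested genes. In SAFB_KO 4 fell and 2 rose (15.3% and 20.2% of all), and in MEIS1_KO 3 fell and 1 rose (3.84% and 4.97% of all). Among the falls of HOXA9_KO, those of CDK4 and RBL2 were each lost in 14 of 18 alternatives. Under the scaling to nuclear protein-coding counts CDK6, the other rise of HOXA9_KO, turned to −0.17. CDKN1A (p21), which inhibits CDK2, was the gene that rose in all 3. It had 939, 866 and 901 CPM in HOXA9_KO, 465, 459 and 469.9 CPM in SAFB_KO and 211, 227.8 and 229 CPM in NT, and 639, 623, 647 and 653 CPM in MEIS1_KO, against 521, 503, 517 and 509 CPM in NT_MEIS1ex. Its order among the groups, HOXA9_KO above SAFB_KO above NT, is the reverse of that of the histone sum, and its part in the result was not tested. CDKN2C fell by 0.77 ± 0.04 and CDKN1B by 0.64 ± 0.05 in HOXA9_KO.

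H4C16 was the histone gene that went the other way. It had 10.7, 10.9 and 9.24 CPM in HOXA9_KO, 7.31, 5.94 and 7.41 CPM in SAFB_KO and 5.21, 6.08 and 5.21 CPM in NT, and rose in HOXA9_KO by 0.90 ± 0.11 on the log2 scale (adjusted p 2.40e-10). All 3 HOXA9_KO libraries lay above all NT and SAFB_KO libraries, and the call held in each of 18 alternatives (adjusted p up to 8.81e-07). The SAFB_KO libraries overlapped those of NT; the estimate of 0.32 ± 0.11 (adjusted p 0.0187) was called, but the call was lost in 6 of 18 alternatives, with an adjusted p up to 0.199. These were the scaling to nuclear protein-coding counts, the fit of all 17 libraries, and the fits without NT replicate 1, NT replicate 3, SAFB_KO replicate 1 or SAFB_KO replicate 3. In the MEIS1 experiment H4C16 had 10.504, 8.52, 10.3 and 9.78 CPM in MEIS1_KO, against 12.7, 9.35, 9.44 and 12.5 CPM in NT_MEIS1ex, with overlapping groups (−0.17 ± 0.11, adjusted p 0.381).

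H2AJ, a replication-independent H2A variant, starts 3251 bases beyond H4C16 on chromosome 12 (GRCh38, 14774383 to 14778002), and it was looked at here because of this place. It had 7.89, 6.94 and 7.14 CPM in HOXA9_KO, 3.36, 4.37 and 3.40 CPM in SAFB_KO and 2.75, 3.08 and 2.61 CPM in NT, with HOXA9_KO above every other library. It rose by 1.38 ± 0.13 in HOXA9_KO (adjusted p 2.56e-13), a call that held in each of 18 alternatives. In SAFB_KO it rose by 0.42 ± 0.14 (adjusted p 0.0141), a call lost under the scaling to nuclear protein-coding counts, without NT replicate 3 and without SAFB_KO replicate 2. In MEIS1_KO it had 3.15, 2.86, 3.09 and 2.84 CPM, against 3.61, 3.59, 3.06 and 3.92 CPM in NT_MEIS1ex, and was not called (−0.25 ± 0.12). The difference between the HOXA9_KO and MEIS1_KO effects was 1.67 ± 0.18 for H2AJ (adjusted p 1.45e-09), beside 1.12 ± 0.16 for H4C16. Unlike H4C16, H4C4 and H4C11 stand in the chromosome 6 clusters, and their levels are drawn beside the pair.

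**Figure D4:**
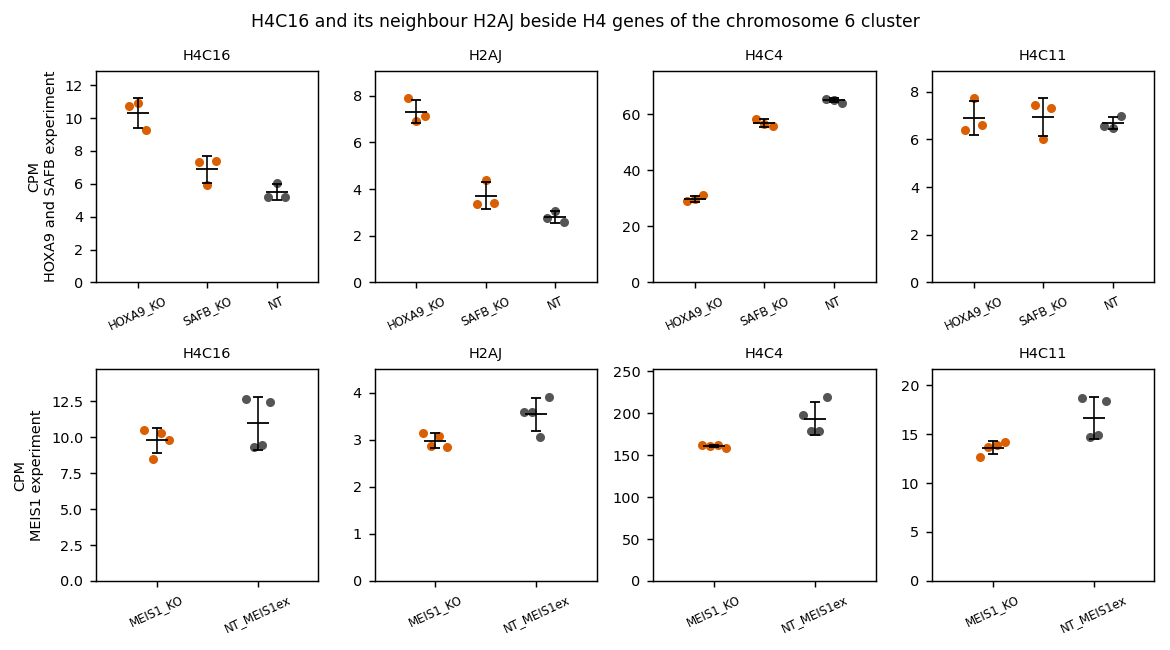
Level in CPM of H4C16, its neighbour H2AJ, H4C4 and H4C11 in every library (points) with the mean and SD of each group (bars), for HOXA9_KO, SAFB_KO and NT and for MEIS1_KO and NT_MEIS1ex. HOXA9_KO is highest for H4C16 (9.24 to 10.9 CPM) and H2AJ (6.94 to 7.89 CPM) and lowest for H4C4 (28.97 to 31.1 CPM) within its experiment.

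Many H2A and H2B genes stand head to head and share the stretch between their starts. There were 11 such pairs with starts at most 500 bases apart, of which 9 had both genes tested. Both genes fell in 7 of the 9 pairs in HOXA9_KO, in 6 in SAFB_KO and in 7 in MEIS1_KO. Most tested histone genes fell in any case (51 of 58, 43 of 58 and 41 of 55). The shares of all tested genes that fell were 29.9%, 15.3% and 3.84%. No comparison with other pairs of histone genes was made. H2AC8 and H2BC8 moved alike, by −1.26 ± 0.05 and −1.17 ± 0.05 in HOXA9_KO and by −0.59 ± 0.04 and −0.53 ± 0.05 in SAFB_KO. H2AC14 and H2BC14 fell by 1.19 ± 0.04 and 0.91 ± 0.04 in HOXA9_KO. Other pairs came apart. H2BC4 fell by 0.58 ± 0.04 in HOXA9_KO, with 132, 132 and 131 CPM in HOXA9_KO against 203, 194 and 191 CPM in NT, while its partner H2AC6 was not called (−0.08 ± 0.04). H2BC21 changed by −0.60 ± 0.05 and H2AC20 by −0.28 ± 0.04, and H2BC26 by −1.76 ± 0.27 and H2AC25 by −0.15 ± 0.19, the last 2 genes at low levels. The Pearson r of the 2 partners' changes over the 9 pairs was 0.05 in HOXA9_KO, 0.64 in SAFB_KO and 0.84 in MEIS1_KO (Spearman rho 0.37, 0.57 and 0.12), a description with no test that rests on few pairs.

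**Figure D5:**
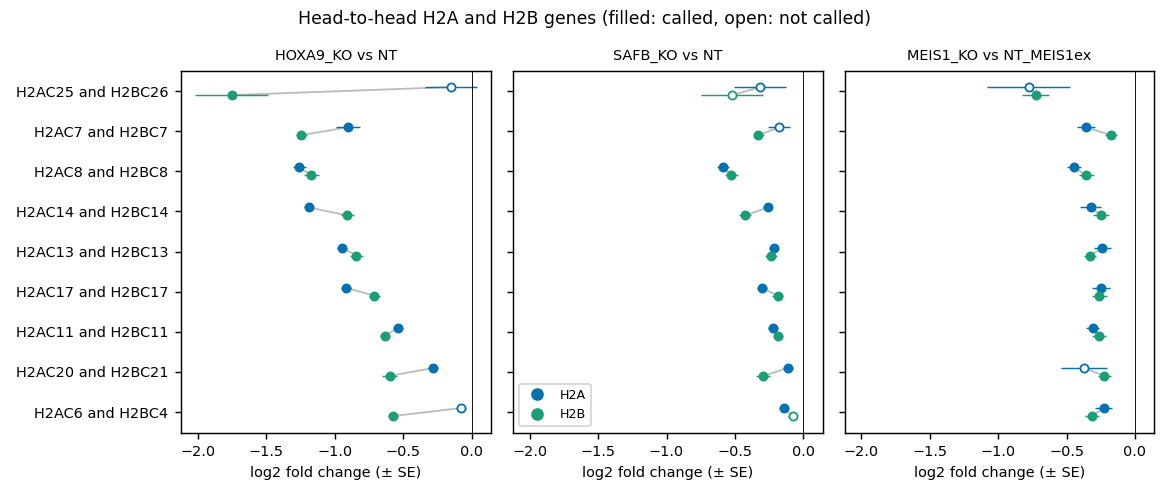
Log2 fold change (± SE) of the H2A and the H2B gene of each of 9 head-to-head pairs in HOXA9_KO vs NT, SAFB_KO vs NT and MEIS1_KO vs NT_MEIS1ex. In HOXA9_KO the partners lie close together for H2AC8 and H2BC8 (−1.26 and −1.17) and far apart for H2AC6 and H2BC4 (−0.08 and −0.58).

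Overlapping gene models, beside near-identical copies, limit what single genes show. H2AC7 (98.0% of its exon bases), H2AC17 (88.0%) and H3C12 (44.6%) overlap exons of another gene on the same strand, as does H3C4 (100%), which had no reads. The shared windows of these genes can come from that overlap. H2AC15, which had no reads either, overlaps exons of another gene on the opposite strand (100% of its exon bases). How reads that map to several copies were handled is not stated in the labels or notes.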

How the data were processed

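The authors deposited, per gene and library, whole-number counts with no normalization, together with lines for reads outside genes; the 17 tables have the same layout, and the count tables of the MEIS1 experiment lack a header. Per the labels' protocols, total RNA was depleted with RiboZero, prepared with a directional kit and sequenced as paired 150-base reads. Per the submitters' processing notes, Trim Galore, STAR 2.7.10a, HTSeq 1.99.2 and bedtools were used with hg38; the notes give no strand setting, annotation release or handling of multiply mapped reads.

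Histone genes were matched by Ensembl identifier (65) or older symbol (4). The members, lists and tests were chosen with earlier results of these data known. Counts were fitted with edgeR 4.0.16 (R 4.3.3): filterByExpr, TMM, robust quasi-likelihood F test, Benjamini-Hochberg adjustment over all tested genes, called at an adjusted p under 0.05. HOXA9_KO, SAFB_KO and NT were fitted together (9 libraries, 18876 genes), MEIS1_KO with NT_MEIS1ex (8 libraries, 15744 genes), and differences between effects over all 17 (18836 genes). Common biological variation was 4.63%, 6.75% and 5.92%. The SE is the log2 change divided by the root of F; ± with a mean is the SD. Lines that name no gene were left out. Depth sets the counting error of single values, which for genes under a few CPM is large.

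Genes named were, in each knockout, the 4 highest of each type, the 5 largest rises and falls with at least 2 CPM, all called members against the main direction and members removed by the filter; from each other list up to 4 genes by smallest p with NPAT, HINFP, CASP8AP2 and SLBP, and the variants, of which 1 is not reported here; for differences, the 5 largest each way. Further genes (pair partners, genes not called, HJURP and CHAF1B among chaperones) were chosen after their values were seen. Alternatives were RLE factors, DESeq2 1.42.0, limma-voom 3.58.1, nuclear protein-coding scaling, a minimum mean of 2 CPM, no filter, a replicate block, other libraries in the fit and leaving out each library. The code was tested on simulated data.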

Additional observations from a re-analysis of the deposited data

Results flagged for a closer look

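Of 122 groups of 4 libraries in the MEIS1 experiment, 5 held a library whose gap to the nearest other passed Dixon's 95% limit; chance gives about 1 in 20. They were MEIS1_KO replicate 4 for H1-3 (115 CPM, the highest of its group), for H2BC4 (284 CPM, the lowest) and for the H1 share of histone RNA (21.3%, the highest); MEIS1_KO replicate 1 for H2AC20 (124 CPM, the lowest); and NT_MEIS1ex replicate 4 for H2BC26 (34.8 CPM, the highest).

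The effects of HOXA9_KO and MEIS1_KO differed for 39 members in the fit of all libraries. The differences were −1.03 for H2BC7, −1.02 for H1-3, −1.01 for H2BC9, −0.98 for H2BC26 and −0.83 for H2AC14, and upward 1.12 for H4C16, 0.39 for H4C11 and 0.19 for H2AC6. The effects of SAFB_KO and MEIS1_KO differed for 2 members, H4C16 (0.50) and H2BC4 (0.25).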

How the results depend on the processing

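Counts of histone genes called lower kept within 1.5 times the reported count in each alternative, leaving out single libraries included: 48 to 54 in HOXA9_KO, 33 to 51 in SAFB_KO and 29 to 49 in MEIS1_KO. So did the count called either way for HOXA9_KO minus MEIS1_KO (35 to 46). Calls that held in every alternative numbered 47 of 52 in HOXA9_KO, 31 of 44 in SAFB_KO, 28 of 41 in MEIS1_KO, 40 of 43 for HOXA9_KO against SAFB_KO and 32 of 39 for HOXA9_KO minus MEIS1_KO. The HOXA9_KO median was −0.67 with RLE factors, with DESeq2 and with only the groups compared, −0.68 with all 17 libraries, −0.75 at a mean of at least 2 CPM and −0.96 under nuclear protein-coding scaling (−0.72 to −0.68 without single libraries). The SAFB_KO median was −0.29 at 2 CPM and −0.38 under nuclear protein-coding scaling (−0.27 to −0.21), and that of MEIS1_KO −0.32 to −0.24 without single libraries. Under nuclear protein-coding scaling the medians of H1, H2A, H2B, H3 and H4 were −1.14, −0.92, −0.97, −1.01 and −0.67 in HOXA9_KO and −0.47, −0.37, −0.43, −0.39 and −0.33 in SAFB_KO, and those of the replication and G2/M lists −1.01 and −1.23 in HOXA9_KO and −0.28 and −0.36 in SAFB_KO. At 2 CPM, H2A, H2B, H3 and H4 had −0.72, −0.77, −0.86 and −0.48 in HOXA9_KO, and H2A, H3 and H4 −0.28, −0.32 and −0.25 in SAFB_KO. Without genes of mostly shared sequence H3 and H4 had −0.87 and −0.67 in HOXA9_KO. The histone sum was 0.451 of NT in HOXA9_KO and 0.766 in SAFB_KO as a share of all gene counts, and 0.513 and 0.769 as a share of nuclear protein-coding counts. Genes called higher numbered 1 to 2 in HOXA9_KO without single libraries (2 without HOXA9_KO replicate 3), and 0 in SAFB_KO under nuclear protein-coding scaling, with all 17 libraries and without some single libraries (0 to 1). SAFB_KO minus MEIS1_KO gave 9 genes under nuclear protein-coding scaling, 5 at 2 CPM, 3 with RLE factors and with DESeq2, and 0 to 3 without single libraries. H2AC6 reversed to −0.13 in HOXA9_KO minus MEIS1_KO under nuclear protein-coding scaling. The cause was not tested. Same-numbered libraries did not deviate together (correlations −0.30 to 0.11); with a replicate block 52 genes were lower in HOXA9_KO (1 higher, median −0.71), 43 in SAFB_KO (1 higher, −0.24) and 40 in MEIS1_KO (0 higher, −0.29), and 43, 40 and 2 were called in the differences HOXA9_KO against SAFB_KO, HOXA9_KO minus MEIS1_KO and SAFB_KO minus MEIS1_KO. An alternative without members of identical protein was not run. Depth limits genes under about 2 CPM, where single libraries decide values.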

Other observations

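MEIS1_KO replicate 1 was the lowest library of its group for H2AC25 and H3C14, as it was for H2AC20, H3C11 and H3C15. H2AC25 had 4.56, 10.4, 9.63 and 14.4 CPM in MEIS1_KO, against 17.1, 14.5, 16.8 and 17.5 CPM in NT_MEIS1ex, and H3C14 had 4.14, 6.30, 5.91 and 6.89 CPM in MEIS1_KO, against 10.1, 9.13, 8.21 and 7.90 CPM in NT_MEIS1ex. Reads outside genes took 9.15% in that library, the highest share of the 8 libraries of its experiment, and the part of this share in the result was not tested. H4C1 lay at 7.37 to 18.3 CPM in the HOXA9 and SAFB experiment and at 78.4 to 126 CPM in the MEIS1 experiment; no test was made across experiments.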
